A study of Homo sapiens with 3 samples.

Results

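The snoRNA host genes were 30 rows of a deposited expression table of 58735 genes, measured in the human gastric cancer cell line HGC-27. They were chosen by name alone, as every gene symbol made of SNHG (small nucleolar RNA host gene) and a number, plus GAS5, ZFAS1, EPB41L4A-AS1, TAF1D and DANCR, which hold snoRNAs under other names. The 30 rows carry 29 symbols, because SNHG28 is listed on 2 rows, and 28 of them are annotated as non-coding. Of these rows, 24 had a mean of at least 1 FPKM and were tested. The other 6, SNHG21, SNHG9, SNHG22, SNHG14 and both rows of SNHG28, were below it.

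Small nucleolar RNAs are short nuclear RNAs that pair with other RNAs, chiefly ribosomal RNA, and place modifications on them. Box C/D snoRNAs guide methylation of the ribose, H/ACA snoRNAs guide the change of uridine to pseudouridine, and scaRNAs are relatives of the Cajal body that act on spliceosomal RNAs. In humans most of them are cut from introns of a longer host transcript, so a non-coding host carries its product in its introns while its spliced exons form a separate RNA. Several such hosts, GAS5 among the first described, are known to start with a run of pyrimidines as ribosomal protein mRNAs do, and to have spliced forms that are removed by nonsense-mediated decay (NMD) when they are translated.

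RNA was sequenced from cells with a short hairpin RNA against USP16 (shUSP16, genotype label shUSP16, 2 libraries called shUSP16-1 and shUSP16-2) and from cells with a control hairpin (shControl, genotype label WT, 1 library). USP16 is a deubiquitinase of histone H2A. What the numbers 1 and 2 stand for is not given, so p-values measure the spread between those libraries, which may be technical. All 3 libraries carry the same protocol text, which names fetal bovine serum and antibiotics for growth and also dexamethasone, isobutylmethylxanthine and insulin. Recovered reads came to 29530581 in shUSP16-1 and 31187845 in shUSP16-2, against 30131136 in shControl. USP16 itself stood at 4.29 FPKM in shUSP16-1 and 5.98 FPKM in shUSP16-2, against 6.28 FPKM in shControl, and was not called by limma (adjusted p = 0.564). Every direction below therefore rests on the labels of the libraries. Markers of the gastric lineage (0 of 7) and of epithelium (0 of 5) did not reach a mean of 1 FPKM. Of the 4 mesenchymal markers 2 reached it, VIM and ZEB1, while FN1 and CDH2 did not. VIM was at 159 and 180 FPKM in the shUSP16 libraries and 155 FPKM in shControl. ZEB1 was at 7.53 and 7.72 FPKM in the shUSP16 libraries and 7.91 FPKM in shControl. Of the 4 fibroblast markers 3 reached that mean, and their summed level was 87.4 and 103 FPKM in the shUSP16 libraries and 67.4 FPKM in shControl, most of it COL1A1. Leukocyte, endothelial and adipocyte lists each summed to under 1 FPKM in every library. Whether these levels play a part in the values below was not tested.

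Some of the hosts share letters around the transcription start. The following 65-base stretches run from 45 bases upstream of the start annotated by RefSeq (GRCh38.p14) to the 20th base of the transcript, and are shown for 4 hosts with both sequence features, 1 host with a pyrimidine start alone, and DANCR, the member with the highest log2 difference, which has neither. Capitals mark TATAA and the pyrimidine run that begins at the start.
SNHG12, chr1:28581854-28581918, minus strand: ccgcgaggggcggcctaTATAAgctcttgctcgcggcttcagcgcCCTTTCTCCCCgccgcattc
SNHG5, chr6:85678714-85678778, minus strand: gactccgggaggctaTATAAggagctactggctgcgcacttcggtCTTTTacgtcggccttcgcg
SNHG19, chr16:2155339-2155403, minus strand: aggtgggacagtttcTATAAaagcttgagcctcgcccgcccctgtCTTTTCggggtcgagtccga
ZFAS1, chr20:49278597-49278661, plus strand: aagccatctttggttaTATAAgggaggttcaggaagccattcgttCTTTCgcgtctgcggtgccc
SNHG4, chr5:139274056-139274120, plus strand: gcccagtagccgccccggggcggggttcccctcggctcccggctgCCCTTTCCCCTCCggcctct
DANCR, chr4:52712349-52712413, plus strand: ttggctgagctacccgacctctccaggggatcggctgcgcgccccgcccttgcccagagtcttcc

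RefSeq promoters were found for 25 of the 29 symbols, 21 of them tested members. A pyrimidine start, defined as C at the annotated start followed by at least 4 bases that are C or T on the gene's strand, was present in 7 of the 21 tested members (33.3%). The same was true of 5.37% of 13334 promoters of tested genes, 4.07% of all 35116 promoters and 55.1% of 78 ribosomal protein genes. TATAA on the gene's strand, lying wholly within 40 to 21 bases upstream of the start, was present in 6 of 21 members (28.6%), in 2.36% of tested genes, 3.77% of all promoters and 8.97% of ribosomal protein genes. SNHG12, SNHG19, SNHG5 and ZFAS1 held both, as did 0.15% of tested genes. The palindrome CACGTG, the E-box that MYC binds, was found anywhere in the window of 300 bases of 1 of 21 members, SNHG7, and of 9.52% of tested genes. These letters were searched with the sequences and levels known, and a match is a description of the sequence. The annotated start differs between RefSeq and the expression table for many members. With bases upstream counted as positive, the RefSeq start lies at 163 for GAS5, -464 for ZFAS1, -1259 for SNHG12, 8464 for SNHG27 and -42896 for TAF1D relative to the table's start. The letters at the start therefore describe 1 annotated start of each gene, and which start was used in these cells was not tested.

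The levels were led by 3 hosts, GAS5, SNHG6 and SNHG1. GAS5, a growth-arrest transcript (ENSG00000234741, chromosome 1, 173863900 to 173868882, minus strand, GRCh38), had 155 FPKM in shUSP16-1 and 167 FPKM in shUSP16-2, against 166 FPKM in shControl. SNHG6 (ENSG00000245910) had 98.8 and 112 FPKM in the shUSP16 libraries and 101 FPKM in shControl. SNHG1 (ENSG00000255717, chromosome 11, 62851988 to 62855914, minus strand) had 67.9 and 82.9 FPKM in the shUSP16 libraries and 77.0 FPKM in shControl. For each of these the shControl value lay between the 2 shUSP16 values. FPKM is read number per kilobase of exon, scaled to library size. The length used was the union of exons over all annotated forms of a gene. Ranks and shares between genes therefore depend on that annotation, and a host with long annotated forms can be understated. Among the 14994 long non-coding genes of the table, ranked by mean FPKM, GAS5 stood at rank 2, SNHG6 at 3, SNHG1 at 4, DANCR at 6, SNHG8 at 8, SNHG3 at 9 and ZFAS1 at 13. In all, 7 members were among the highest 20 and 16 among the highest 100.

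All members together took 0.209% of reads in shUSP16-1, 0.226% in shUSP16-2 and 0.223% in shControl, with exact binomial 95% intervals of 0.207 to 0.211, 0.224 to 0.227 and 0.221 to 0.225. Intervals here and below cover counting error only. Their summed level was 674 FPKM in shUSP16-1 and 744 FPKM in shUSP16-2, against 682 FPKM in shControl. GAS5, SNHG6 and SNHG1 made up 47.8% and 48.7% of that sum in the shUSP16 libraries and 50.4% in shControl. By both measures shControl lay between the 2 shUSP16 libraries. In bulk RNA a lower level in each cell and fewer cells with that level cannot be told apart.

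**Figure D1:**
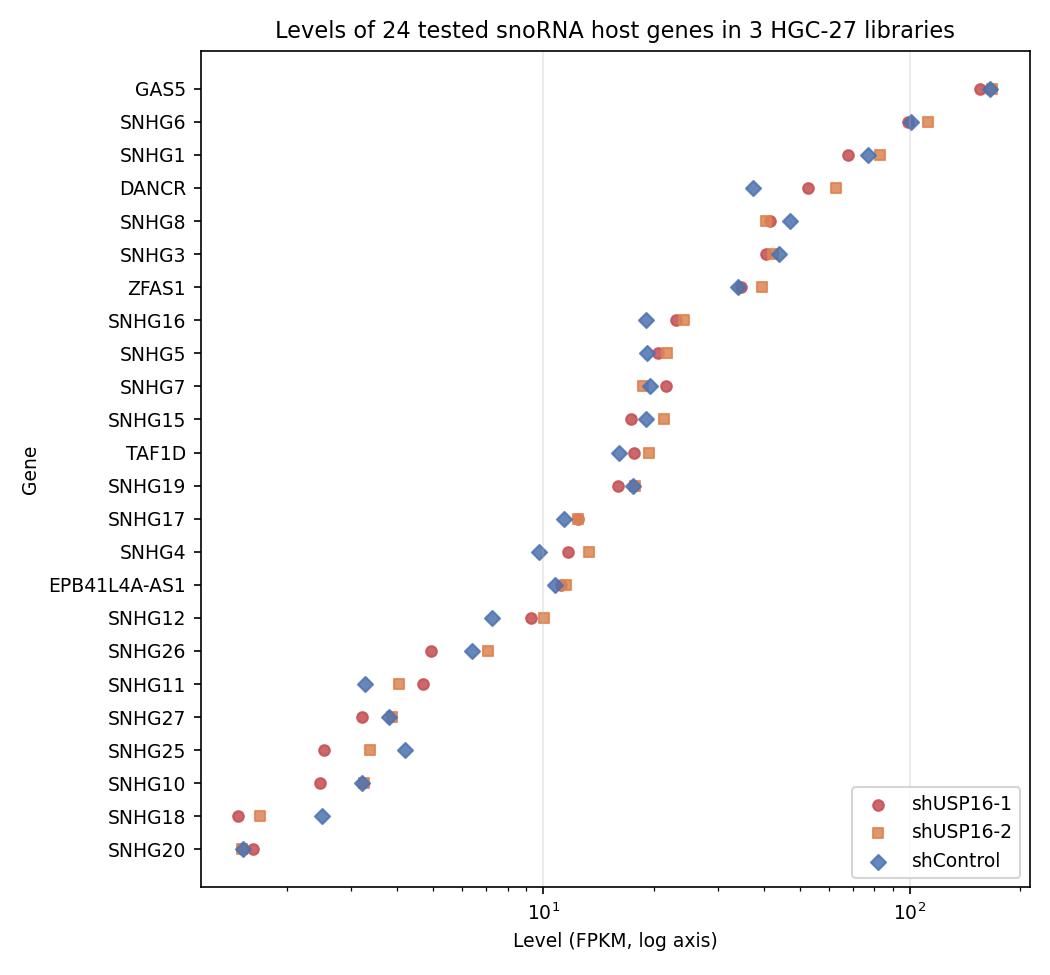
Level of each tested snoRNA host gene in FPKM (log axis) in shUSP16-1 (circles), shUSP16-2 (squares) and shControl (diamonds), with genes ordered by mean level. GAS5 lies at 155 to 167 FPKM in the 3 libraries, and DANCR has its shControl point, at 37.4 FPKM, well to the left of both shUSP16 points.

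DANCR had the highest log2 difference from shControl, and SNHG12, SNHG16, SNHG4 and SNHG11 were also higher in both shUSP16 libraries, while SNHG18, SNHG25, SNHG8 and SNHG3 were lower in both. No member passed the test in limma on log2(FPKM + 1) with Benjamini-Hochberg adjustment (0 of 24 at an adjusted p under 0.05, where 0% of the 13852 genes tested were called). Adjusted p ran from 0.280 for DANCR to 0.972 for SNHG15. At an unadjusted p under 0.05 there were 2 members, DANCR and SNHG12, both higher, among 2008 genes in all (8.71% of genes higher and 5.78% lower). On reads recovered from the FPKM values, limma voom called 1 member higher, DANCR, where 1.47% of genes were called higher and 1.04% lower with the authors' totals. With sums of reads as totals it again called DANCR alone among the members, where 1% of genes were called higher and 3.02% lower. limma restricted to protein-coding and the main long non-coding biotypes called 0 members, where it called 0.212% of 12247 genes. On simulated data limma and voom made more false calls than the threshold allows, and the calls here and below carry that limit.

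Counted without a test, 10 of 24 members were higher in both shUSP16 libraries (44.9% of all tested genes were), 4 were lower in both (32.4% of all genes) and 10 had shControl between the libraries. The 2 comparisons share the lone shControl library. The median log2 difference of the members was 0.03, against 0.04 over all tested genes. No member was at least 1.5-fold higher in both (0.96% of genes) or at least 1.5-fold lower in both (2.01% of genes), and 15 of 24 were within 1.25-fold of shControl in both, as were 52.8% of genes. With library totals made equal, 8 were higher in both (31.3% of genes), 11 lower in both (45.4% of genes), and the median was -0.05, as it was over all genes. Taken alone, shUSP16-2 had 18 members higher and 6 lower than shControl, and shUSP16-1 had 12 higher and 12 lower. The share over all tested genes was not computed for a single library, so these counts describe the libraries only. The median log2 difference of the members was 0.11 in shUSP16-2 and -0.0016 in shUSP16-1, against 0.04 in each over all tested genes. The 24 members passed the filter on their mean over 3 libraries, so these counts describe the members that passed it.

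DANCR, named for a role in holding back differentiation, is the host of SNORA26 (ENSG00000226950, chromosome 4, 52712404 to 52720351, plus strand). It had 52.6 FPKM in shUSP16-1 and 62.8 FPKM in shUSP16-2, against 37.4 FPKM in shControl, from 3595, 4445 and 2783 reads. Both shUSP16 values lay above shControl, by more than the gap between them. Its ratio of scaled reads, with the 95% counting interval, was 1.41 (1.34 to 1.48) in shUSP16-1 and 1.68 (1.60 to 1.76) in shUSP16-2, each over shControl. In limma the log2 difference was 0.61 with an SE of 0.15 (adjusted p = 0.280), and 98.3% of tested genes lay at or below it. In limma voom it was 0.62 with the authors' totals (adjusted p = 0.0255) and 0.51 with sums of reads (adjusted p = 0.0331). Over the other limma settings the adjusted p of DANCR ran from 0.122 with restricted biotypes to 0.768 with no filter on low values. Exons of AC104066.1 on the opposite strand cover 11.9% of the exon bases of DANCR, and the sources used here do not say whether reads were counted by strand.

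SNHG12, which holds SNORD99 and 3 H/ACA snoRNAs (ENSG00000197989, chromosome 1, 28578538 to 28583132, minus strand), had 9.26 FPKM in shUSP16-1 and 10.1 FPKM in shUSP16-2, against 7.26 FPKM in shControl. Its log2 difference was 0.37 with an SE of 0.13 (limma adjusted p = 0.320; voom adjusted p = 0.169 with the authors' totals and 0.326 with sums of reads). SNHG16, which holds the 3 SNORD1 snoRNAs, had 23.0 and 24.1 FPKM in the shUSP16 libraries and 19.1 FPKM in shControl. Both genes had their shUSP16 values close together and clear of shControl. SNHG4, which holds SNORA74A and SNORA74D, had 11.7 and 13.3 FPKM in the shUSP16 libraries and 9.73 FPKM in shControl. Exons of MATR3 on the same strand cover 14.0% of the exon bases of SNHG4, so its reads could have been split between the genes. SNHG11, host of SNORA60, had 4.71 and 4.05 FPKM in the shUSP16 libraries and 3.27 FPKM in shControl. The log2 differences of SNHG16, SNHG4 and SNHG11 were 0.29, 0.33 and 0.33, with limma adjusted p = 0.357, 0.360 and 0.380.

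On the lower side, SNHG18, host of SNORD123 (ENSG00000250786, chromosome 5, 9546200 to 9550609, plus strand), had 1.48 and 1.69 FPKM in the shUSP16 libraries and 2.49 FPKM in shControl, from 86, 102 and 158 reads. Its log2 difference was -0.44 with an SE of 0.18 (limma adjusted p = 0.360). The added pseudocount of 1 shrinks the difference of so low a gene, and voom, which works on reads, gave -0.65 (adjusted p = 0.307). SNHG8, host of SNORA24, had 41.6 and 40.4 FPKM in the shUSP16 libraries and 47.0 FPKM in shControl, so that both shUSP16 values were below it. SNHG3, host of both SNORA73 snoRNAs, had 40.4 and 42.2 FPKM in the shUSP16 libraries and 43.8 FPKM in shControl. SNHG25, host of SNORD104, had 2.53 and 3.37 FPKM in the shUSP16 libraries and 4.20 FPKM in shControl, from only 21, 29 and 38 reads, so its ratios had intervals that included 1 (0.336 to 1.05 in shUSP16-1 and 0.477 to 1.33 in shUSP16-2). None of the 4 passed the limma test.

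**Figure D2:**
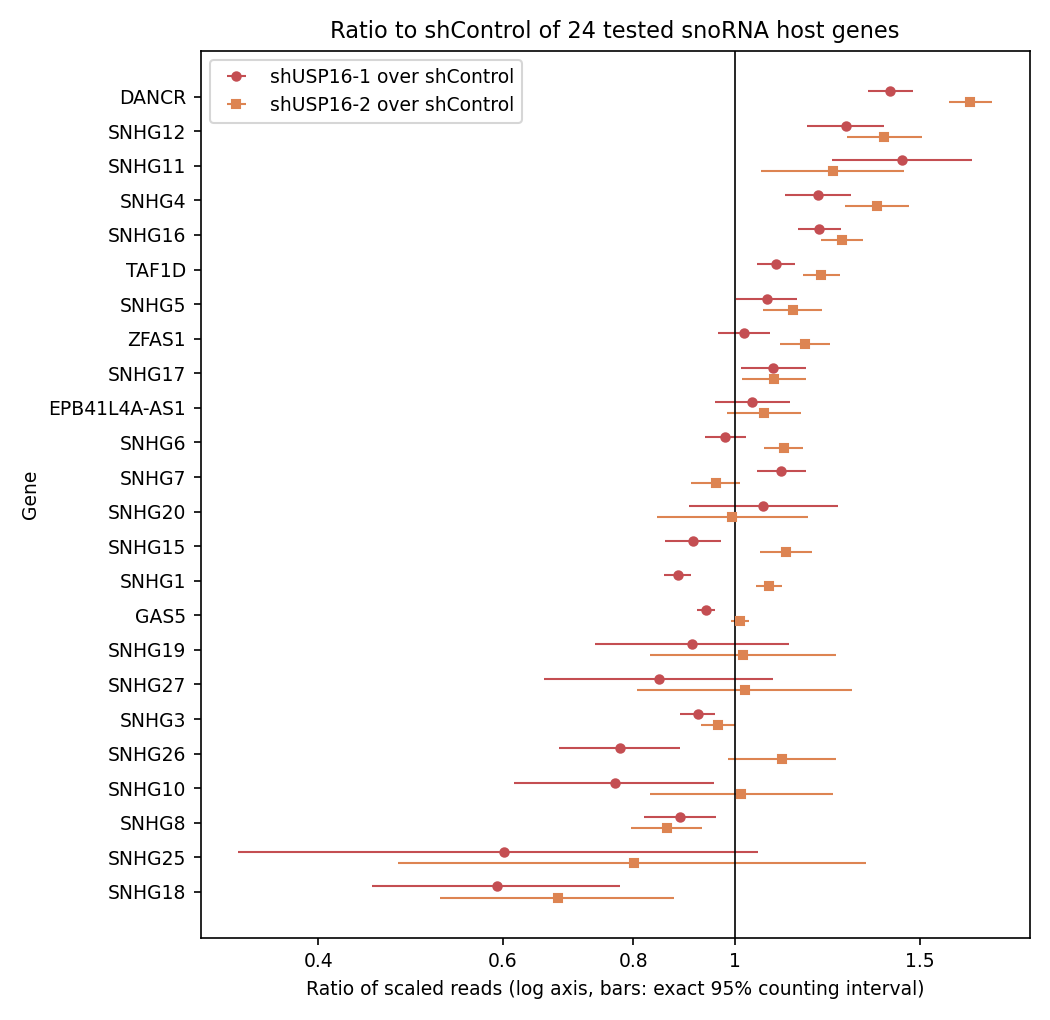
Ratio of scaled reads to shControl (log axis) for the 24 tested snoRNA host genes in shUSP16-1 (circles) and shUSP16-2 (squares), with exact binomial 95% intervals that cover counting error only. The square of DANCR at 1.68 and the circle of SNHG11 at 1.44 are farthest to the right, and SNHG18 lies farthest to the left at 0.593 and 0.678, and 10 members have the 2 libraries on opposite sides of 1.

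The members in between were hosts of all classes. ZFAS1, transcribed away from ZNFX1 and host of the 3 SNORD12 snoRNAs, had 34.6 and 39.6 FPKM in the shUSP16 libraries and 34.0 FPKM in shControl. TAF1D, the protein-coding row among the tested members, which encodes a subunit of the selectivity factor of RNA polymerase I and carries 8 snoRNAs, had 17.6 and 19.5 FPKM in the shUSP16 libraries and 16.1 FPKM in shControl. SNHG5, host of the SNORD50 snoRNAs, had 20.5 and 21.7 FPKM in the shUSP16 libraries and 19.1 FPKM in shControl. These 3 were higher in both shUSP16 libraries by less than 1.25-fold. EPB41L4A-AS1, host of SNORA13, had 11.2 and 11.5 FPKM in the shUSP16 libraries and 10.8 FPKM in shControl, and SNHG17, host of the SNORA71 cluster, had 12.4 FPKM in each shUSP16 library and 11.4 FPKM in shControl. SNHG15, host of SNORA9, had 17.4 and 21.3 FPKM in the shUSP16 libraries and 19.1 FPKM in shControl. SNHG15 shows the pattern of the 10 members without a direction, a control value between the 2 shUSP16 values. The others of that pattern were GAS5, SNHG6, SNHG1, SNHG7, SNHG19, SNHG26, SNHG27, SNHG10 and SNHG20, with log2 differences from -0.13 for SNHG10 to 0.06 for SNHG6.

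Counting error alone was small for the abundant members. With the authors' totals the 95% interval of the ratio lay above 1 in both libraries for 8 members, DANCR, SNHG16, SNHG5, TAF1D, SNHG4, SNHG17, SNHG12 and SNHG11 (28% of tested genes), and below 1 in both for SNHG8 and SNHG18 (15.1% of genes). With sums of reads, 4 stayed above, DANCR, SNHG16, SNHG4 and SNHG12 (17% of genes), and 4 were below, GAS5, SNHG3, SNHG8 and SNHG18 (25% of genes). DANCR, SNHG16, SNHG4, SNHG12, SNHG8 and SNHG18 thus kept their side of 1 under both scalings. The interval covers the counting of reads and not the spread between cultures.

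The 2 shUSP16 libraries also differed from each other in the members. shUSP16-2 was above shUSP16-1 for 20 of 24 members, where 52.2% of all tested genes were, and for 19 of 24 with equal totals (47.6% of genes). Over the 1341 tested long non-coding genes it was above for 597 (44.5%). The median log2 difference of shUSP16-2 from shUSP16-1 was 0.13 over the members and 0.01 over all genes. SNHG1, at 67.9 FPKM in shUSP16-1 and 82.9 FPKM in shUSP16-2, and SNHG15 show it at high and middle levels. This contrast is between libraries of the same label and has no replicate, so it has no test.

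The members were then grouped by the kind of RNA that RefSeq places in them, and the ranges of the groups overlapped. Over all tested genes 44.9% were higher in both shUSP16 libraries and 32.4% lower in both, and the groups are small beside that share. Of 9 tested members with H/ACA snoRNAs only, 5 were higher in both and 2 lower in both, with a median log2 difference of 0.07 and a range from -0.19 (SNHG8) to 0.61 (DANCR). Of 8 with box C/D snoRNAs only, 3 were higher and 1 lower, with a median of 0.01 and a range from -0.44 (SNHG18) to 0.29 (SNHG16). Of the 4 with both kinds, GAS5, TAF1D, SNHG12 and SNHG25, 2 were higher and 1 lower. SNHG10 and SNHG20 hold a scaRNA, and SNHG27 holds none in RefSeq. By start sequence, the 7 tested members with a pyrimidine start had 5 higher in both and 1 lower, with a median of 0.13. The 14 tested members matched to a promoter without one had 5 higher and 2 lower, with a median of -0.01. GAS5 was counted among these 14, at a RefSeq start that lies 163 bases upstream of the start in the expression table. The ranges overlapped, from -0.44 to 0.37 with a pyrimidine start and from -0.19 to 0.61 without, and the difference was not tested.

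The resident snoRNAs themselves were read poorly in this table, and some have no row in it. GAS5 has 0 snoRNA rows inside it, although RefSeq places 10 box C/D snoRNAs and 1 H/ACA snoRNA there. The values below therefore do not cover the snoRNAs of GAS5. All 51 snoRNA and scaRNA rows that lie inside a member and touch an annotated exon of that member were at 0 reads in all 3 libraries. Among them were SNORD87 in SNHG6 and SNORD22 in SNHG1. Over the whole table, overlap was counted more widely, with exons of any gene other than a small RNA, on either strand. Rows that touch such an exon were at 0 in 188 of 199 cases (94.5%), against 549 of 793 rows that touch none (69.2%). A 0 in such a row cannot be read as absence of the snoRNA. Leaving out SNHG14, 23 rows inside members touched no exon of their host, and 19 of them had reads. The reads may come from the unspliced host as well as from the snoRNA, and how RNA was selected by size is not stated in those sources.

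**Figure D3:**
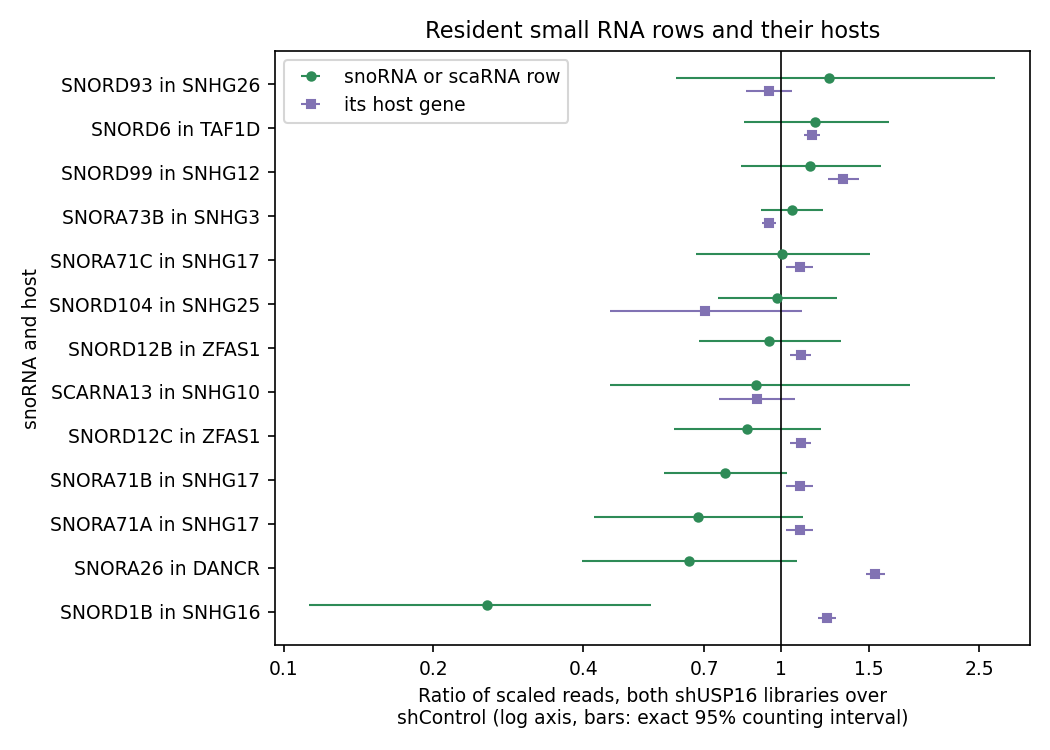
Pooled ratio of scaled reads, both shUSP16 libraries over shControl (log axis), for the 13 resident rows with at least 30 reads over the 3 libraries (circles) and for their host genes (squares), with exact binomial 95% counting intervals. SNORD1B at 0.256 lies apart from its host SNHG16 at 1.23, and SNORA26 at 0.652 from its host DANCR at 1.54, and every plotted resident interval other than that of SNORD1B includes 1.

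The 4 resident snoRNAs that the following values turn on are given as read from the human genome (GRCh38). Capitals mark box C (A or G followed by TGATGA) and box D (CTGA) of the C/D snoRNAs, and the ACA near the end of SNORA26.
SNORA26 in DANCR, chr4:52713249-52713370, plus strand: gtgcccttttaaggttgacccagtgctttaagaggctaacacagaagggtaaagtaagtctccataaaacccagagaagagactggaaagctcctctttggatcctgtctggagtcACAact
SNORD1B in SNHG16, chr17:76561109-76561192, plus strand: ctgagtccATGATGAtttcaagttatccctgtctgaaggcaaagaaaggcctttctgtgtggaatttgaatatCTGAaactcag
SNORD12B in ZFAS1, chr20:49280319-49280409, plus strand: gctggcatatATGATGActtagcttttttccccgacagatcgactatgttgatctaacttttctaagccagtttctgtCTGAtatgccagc
SNORD12C in ZFAS1, chr20:49278940-49279028, plus strand: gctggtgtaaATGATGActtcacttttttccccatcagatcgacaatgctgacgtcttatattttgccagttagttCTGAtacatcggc

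SNORA26 had 18 reads in shUSP16-1 and 21 in shUSP16-2, against 32 in shControl. Its pooled ratio to shControl was 0.652 (exact binomial 95% interval 0.398 to 1.07), where that of its host DANCR was 1.54 (1.48 to 1.61). The interval of SNORA26 included 1 and lay below that of DANCR. SNORD1B had 5 and 6 reads in the shUSP16 libraries and 23 in shControl, a pooled ratio of 0.256 (0.113 to 0.546), where SNHG16 had 1.23 (1.18 to 1.29). It was the only 1 of the 19 rows with reads whose interval lay off 1, and it was named after the values were seen. How many snoRNA rows elsewhere have such an interval was not computed, and the intervals were not adjusted for the number of rows. SNORD12B had 44 and 62 reads in the shUSP16 libraries and 60 in shControl, and SNORD12C had 49 and 45 in the shUSP16 libraries and 59 in shControl. Both rows of ZFAS1 had intervals that included 1.

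SNORA73B in SNHG3, a snoRNA needed for processing of the ribosomal precursor, gave the most reads, 290 in shUSP16-1 and 295 in shUSP16-2, against 298 in shControl. SNORD104 in SNHG25 had 62 and 90 reads in the shUSP16 libraries and 83 in shControl, more than its short spliced host. SNORD99 in SNHG12 had 57 and 67 reads in the shUSP16 libraries and 58 in shControl. Summed over the 19 rows there were 719 reads in shUSP16-1 and 857 in shUSP16-2, against 898 in shControl. The ratio of that sum to shControl was 0.872 in shUSP16-1 (0.790 to 0.963) and 1.00 in shUSP16-2 (0.912 to 1.10). A pooled ratio below 1 was found in 13 of 19 rows. The share over all snoRNA rows with reads was not computed, so that count describes these rows only. As with the hosts, shUSP16-1 was the lower of the libraries with the same label.

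Several members share a promoter region with a gene on the opposite strand. The expression table held 11 such genes within 1000 bases of a member's start or overlapping it there, 6 of them tested. Of these 6, 4 were higher and 2 lower in both shUSP16 libraries, beside 44.9% and 32.4% of all tested genes. SLC3A2, the heavy chain of amino acid transporters, starts 188 bases from SNHG1 and had 101 and 95.9 FPKM in the shUSP16 libraries and 79.5 FPKM in shControl. SNHG1 itself had shControl between the shUSP16 values. ZNFX1, opposite ZFAS1, had 4.72 and 4.42 FPKM in the shUSP16 libraries and 3.80 FPKM in shControl. ZBTB37, a zinc finger gene that overlaps the start of GAS5, was lower, at 1.98 and 2.03 FPKM in the shUSP16 libraries and 2.75 FPKM in shControl. RPS2, opposite SNHG9, had 1097 and 1135 FPKM in the shUSP16 libraries and 868 FPKM in shControl, while SNHG9 had 5 and 8 reads in the shUSP16 libraries and 11 in shControl. No neighbour passed the limma test. Voom with the authors' totals called none of them, and with sums of reads it called ZBTB37 lower (adjusted p = 0.0279).

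Several members share exon bases with another gene. On the opposite strand such exons cover 49.6% of the exon bases of EPB41L4A-AS1, 30.6% of SNHG16, 29.3% of SNHG6, 26.1% of ZFAS1, 25.2% of SNHG7 and 20.1% of SNHG10. Without strand, reads on these shared bases cannot be told apart between a member and its partner. Overlap on the same strand touched SNHG4, as given above, SNHG20 and SNHG3 among the tested members. Exons of SEC14L1 cover 7.56% of the exon bases of SNHG20. Exons of RCC1, the exchange factor of the Ran GTPase, cover 5.92% of the exon bases of SNHG3. RCC1 had 32.5 and 34.8 FPKM in the shUSP16 libraries and 22.5 FPKM in shControl. RCC1 was called higher by voom (adjusted p = 0.0268 with the authors' totals and 0.0412 with sums of reads) while SNHG3 was not. Without the members that share exons on the same strand, 9 of 21 tested members were higher in both (44.9% of all tested genes) and 3 lower in both (32.4% of genes). Their median log2 difference was 0.04.

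Most of the proteins that make snoRNAs into particles lay above shControl. Of the 8 core proteins of box C/D and H/ACA particles, 7 were higher in both shUSP16 libraries and 0 lower, with a median log2 difference of 0.54, beside 44.9% of genes and a median of 0.04 over all genes. Voom called 4 of them higher with the authors' totals (1.47% of genes) and 3 with sums of reads (1% of genes), and limma called 0. SNU13, which binds the kink-turn of box C/D snoRNAs, had 41.2 and 44.2 FPKM in the shUSP16 libraries and 26.3 FPKM in shControl. DKC1, the pseudouridine synthase dyskerin of H/ACA particles, had 44.9 and 53.3 FPKM in the shUSP16 libraries and 32.4 FPKM in shControl. NOP56, a core protein of box C/D particles, had 52.4 and 67.7 FPKM in the shUSP16 libraries and 39.0 FPKM in shControl, and NHP2, of H/ACA particles, had 33.2 and 34.1 FPKM in the shUSP16 libraries and 22.5 FPKM in shControl. Of 13 tested assembly factors, 11 were higher in both and 1 lower, with a median of 0.27. NOLC1, a nucleolar and Cajal body protein that binds snoRNPs, led them at 146 and 171 FPKM in the shUSP16 libraries and 104 FPKM in shControl, and was the only one called by voom (adjusted p = 0.0206 with the authors' totals).

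Most protein-coding genes that hold snoRNAs were also above shControl. Of 28 tested ribosomal protein genes with a snoRNA, 24 were higher in both shUSP16 libraries and 2 lower, with a median of 0.18. Over all tested genes 44.9% were higher in both and 32.4% lower in both, with a median of 0.04. RPSA, of the small subunit, had 434 and 417 FPKM in the shUSP16 libraries and 335 FPKM in shControl. Of 175 other tested protein-coding hosts, 126 were higher in both and 25 lower, with a median of 0.13. Voom with the authors' totals called 9 of them higher and 1 lower, where 1.47% of all tested genes were called higher and 1.04% lower. HSPA8, the constitutive HSC70 chaperone and host of several SNORD14 snoRNAs, had 264 and 303 FPKM in the shUSP16 libraries and 159 FPKM in shControl. Voom called it with the authors' totals (adjusted p = 0.00149), and also RANBP1, a Ran-binding protein (adjusted p = 0.00857). LRCH2 was the gene called lower, at 3.39 and 3.92 FPKM in the shUSP16 libraries and 6.18 FPKM in shControl. Of the long non-coding genes as a whole more were lower than higher, with 256 of 1341 higher in both and 750 lower, and a median of -0.17. The members lay between these classes, with 10 of 24 higher and 4 of 24 lower. Shares over protein-coding genes as a whole were not computed, and the differences between the classes were not tested.

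**Figure D4:**
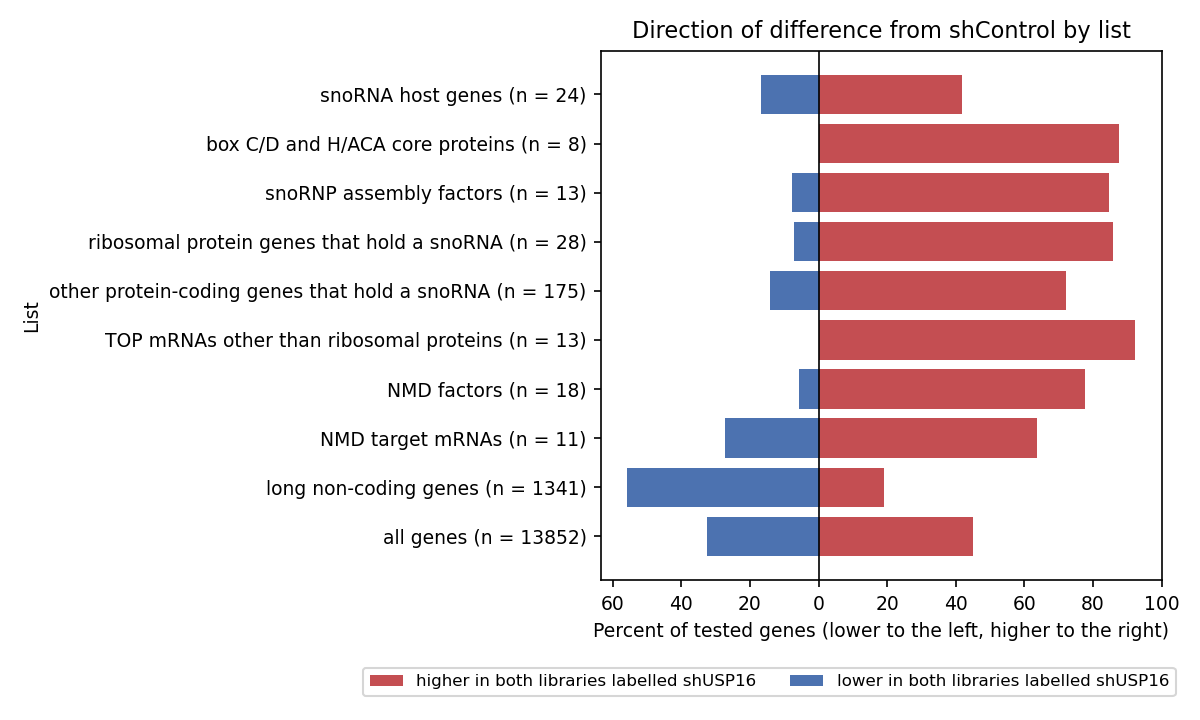
Percent of tested genes of each list that were higher in both shUSP16 libraries (to the right) and lower in both (to the left), with the number tested in each list. The snoRNA host genes have 10 of 24 to the right (41.7%) and 4 of 24 to the left (16.7%), where all genes have 44.9% and 32.4%, while the core proteins have 7 of 8 to the right and long non-coding genes 750 of 1341 to the left.

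Partners in translation and decay were read from named lists, beside 44.9% of all tested genes higher in both shUSP16 libraries and 32.4% lower in both. Of 13 tested mRNAs with a terminal oligopyrimidine start other than ribosomal protein mRNAs, 12 were higher in both and 0 lower, with a median of 0.26. EEF1B2, a translation elongation factor, had 252 and 258 FPKM in the shUSP16 libraries and 195 FPKM in shControl (limma adjusted p = 0.280). Of 18 NMD factors, 14 were higher in both and 1 lower, with a median of 0.17, led by MAGOH of the exon junction complex at a log2 difference of 0.37 and the RNA helicase EIF4A3 at 0.32. The listed NMD target mRNAs were mixed, with 7 of 11 higher in both and 3 lower. ATF3, a stress-induced transcription factor, had 11.4 and 12.9 FPKM in the shUSP16 libraries and 25.8 FPKM in shControl, and DDIT3 had 15.9 and 15.5 FPKM in the shUSP16 libraries and 29.8 FPKM in shControl. Voom called both lower with the authors' totals (adjusted p = 0.000315 and 0.00692). Both genes are also known to be induced by stress. GADD45A was lower too, at 15.1 and 17.0 FPKM in the shUSP16 libraries and 22.8 FPKM in shControl. Voom called it with sums of reads (adjusted p = 0.0231) and not with the authors' totals (adjusted p = 0.0762). ATF4 was higher, at 346 and 351 FPKM in the shUSP16 libraries and 270 FPKM in shControl, and voom did not call it. Of the 5 subunits of selectivity factor SL1, 4 were higher in both and 1 lower. Besides TAF1D, the log2 differences were 0.29 for TAF1A, 0.22 for TAF1B, 0.16 for TBP and -0.06 for TAF1C. With equal totals the medians were 0.44 for core proteins, 0.16 for assembly factors, 0.15 for the oligopyrimidine mRNAs, 0.07 for NMD factors and for ribosomal protein hosts, 0.04 for other protein-coding hosts and -0.25 for long non-coding genes, so none of these changed sign. The median of the members did, and so did that of all tested genes under the same scaling.

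The 6 members below the filter had from 0 to 43 reads in a library. SNHG21 had 15 reads in shUSP16-1 and 32 in shUSP16-2, against 43 in shControl, with ratios of 0.380 (0.196 to 0.698) in shUSP16-1 and 0.782 (0.479 to 1.26) in shUSP16-2. Exons of another gene on its strand cover 72.9% of the exon bases of SNHG21. SNHG22 had 0 and 2 reads in the shUSP16 libraries and 2 in shControl. SNHG14, the long imprinted transcript of the Prader-Willi region that runs antisense to UBE3A and carries the SNORD115 and SNORD116 clusters, had 13 and 7 reads in the shUSP16 libraries and 13 in shControl, over 43324 exon bases. SNHG28 had 0 reads on both rows in all 3 libraries, and a count of 0 allows up to 3 reads per library. The interval of SNHG21 lay below 1 in shUSP16-1 only and included 1 in shUSP16-2, and the gene was not tested. For the other genes below the filter no difference was detectable at this depth.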

How the data were processed

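Values were FPKM, which the authors deposited for 58735 genes in 3 libraries with gene length, coordinates and biotype, per the file headers. GRCm38 and mm10, both mouse builds, are named in the submitters' processing notes, yet all 58735 IDs, coordinates and lengths equal GENCODE release 29 on GRCh38. The sources used here do not name the aligner, counter or strand setting. FPKM times length was a whole multiple of 1 step per library for 100% of values (tolerance 0.01 reads), so whole reads were recovered. The totals implied by the FPKM were 1.01 times their sum in shUSP16-1 and 0.994 times in shUSP16-2, against 1.08 times in shControl. Both scalings are therefore given.

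limma 3.58.1 in R 4.3.3 was run with a mean trend on log2(FPKM + 1), which understates changes of low genes, over the 13852 genes whose mean reached 1 FPKM, with Benjamini-Hochberg adjustment over all of them and a threshold of 0.05. The spread comes from the 2 shUSP16 libraries, and the lone shControl is assumed to vary like them. An exact permutation test of 3 libraries cannot go below p = 0.333. limma voom on recovered reads was an alternative, and both were tested on simulated data, where they recovered the direction of the changed genes and made more false calls than the threshold allows. Ratio intervals are exact binomial 95% intervals. Promoters come from RefSeq. Divergent neighbours start within 1000 bases on the opposite strand.

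Members and lists were chosen with earlier results of these data known. Members named in full were GAS5, ZFAS1, EPB41L4A-AS1, TAF1D, DANCR, SNHG1, SNHG5, SNHG6, SNHG8, SNHG12, SNHG15 and SNHG16, and up to 6 per direction by the change of the weaker library, and lists name up to 4 by that measure. Python 3.11.15, pandas 2.3.3 and scipy 1.17.1 were used.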

Additional observations from a re-analysis of the deposited data

How the results depend on the processing

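The count of 0 members past the test held under a pseudocount of 0.1, no filter, a mean of at least 5 FPKM, equal totals, median ratios, restricted biotypes, no trend and a robust trend, and was 1 (DANCR) in voom with either total. Members lower in both, 4 as reported, were 2 of 18 with a mean of at least 5 FPKM and 11 with equal totals or in voom with sums of reads. The median, 0.033 as reported, was -0.053 with equal totals and -0.067 in voom with sums of reads. With shUSP16-1 or shUSP16-2 left out, only 1 library remains to be set against shControl, and 12 to 18 members were higher and 6 to 12 lower in it, counts of single signs that cannot be set beside those for both libraries. Of 17 named members, 14 kept their sign in all 10 other fits over 3 libraries, and EPB41L4A-AS1, SNHG15 and SNHG6 changed it in 2 fits. Some of the 17 were chosen for having the same sign in both shUSP16 libraries, which favours a stable sign. Tested members outside the 17 also changed sign. In voom with sums of reads SNHG7 went from 0.04 to -0.07 and SNHG20 from 0.02 to -0.07. The cause was not tested. No paired analysis was possible because shControl has 1 library, so the groups share fewer than 2 replicate numbers. With 1 control library and 1 residual degree of freedom, small differences of low members such as SNHG25 were not detectable.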
